A study of Mus musculus with 32 samples.

Results

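The livers compared here came from male C57/BL6 mice that had eaten either a diet lacking methionine and choline (MCD diet) or a standard diet for 3 weeks, with 4 livers in each group. None of these 8 mice had received an agonist or undergone hepatectomy, and they were chosen by those labels alone from the 32 livers of the study. The other livers carried combinations of the diet with a dual agonist of the GLP-1 receptor (GLP1R) and the glucagon receptor (GCGR), before or after removal of part of the liver. Of these, only the 8 agonist-treated livers without hepatectomy are described below, on standard diet (4) or MCD diet (4), with 4.4 mg/kg/day of the agonist given every other day for 2 weeks. Total RNA of each whole frozen liver was hybridised to its own one-colour oligonucleotide array. The labels give no ages and do not say whether food intake was matched between the diets.

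Methionine is converted in hepatocytes to S-adenosylmethionine, the methyl donor for DNA, proteins and phosphatidylcholine, and choline is the other source of phosphatidylcholine, which coats the lipoprotein particles that carry fat out of the liver. Feeding rodents a diet without both is a classical model of steatohepatitis: triglyceride accumulates, hepatocytes are damaged and macrophages gather around them, while the animals lose weight and do not become obese or insulin resistant as most patients do. Shortage of an essential amino acid is sensed by the kinase GCN2, which acts through the transcription factor ATF4 on genes for amino acid synthesis and uptake.

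Levels are given as log2 of the processed signal minus the 75th percentile of the same array, so that 0 is the level of a probe brighter than 75% of the array, and values of different probes are not set against each other. The 4 values of a group are always listed in the order of its replicates. Differences are MCD diet minus standard diet with the standard error of a limma fit to all 32 arrays, to which the livers after hepatectomy contribute only the estimate of the spread, and "rose" and "fell" are used for genes with a Benjamini-Hochberg adjusted p under 0.05 over 21710 genes. By that rule 26% of all genes tested were called, 10.7% higher and 15.3% lower on MCD diet. These shares are the background for the lists of genes counted below in this main fit. Counts under another setting, and counts of interactions, have a different background. The 2 groups of 4 livers did not overlap for 27.9% of the genes. In whole liver, fewer cells of a type and less RNA per cell cannot be told apart. The p-values rest on a spread pooled over all 8 groups of 4 livers. Overlapping groups can therefore be called, and groups that do not overlap can fail to pass.

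Between 48.5% and 69.7% of the spots were well above background on the 8 arrays, and the highest of these values belongs to the second standard diet liver, the next highest being 59.0%. The 75th percentile of the processed signal, by which each array was scaled, was 209 to 395 on the standard diet arrays. On the MCD diet arrays it was 442 to 564, without overlap. Pearson correlations of log2 levels ran from 0.962 to 0.981 among the standard diet arrays, from 0.981 to 0.985 among the MCD diet arrays and from 0.933 to 0.953 between the diets, and the first principal component, with 51.6% of the variance, separated the diets. The diets lay in separate rows of one slide, so that row and diet cannot be told apart. The log table that accompanies the scanner files contradicts them: in 16 of its 32 columns the values match the array of another group, the MCD diet being exchanged with the standard diet with agonist. Best rank correlations with an array were 0.954 to 0.997, while the exchanged columns reached 0.868 to 0.939 with their own array. The slide positions that the labels give for the 16 arrays without hepatectomy match the scanner files' own records on 16 of 16 arrays. The scanner files were therefore used. This match ties the files to the labels but cannot show which liver lay at each position. Taken as deposited, the table calls 1194 genes instead of 5648, of which 514 are also called the same way here; with its columns placed at the arrays they match, it calls 4193, of which 3084 are called the same way here. The male-biased and female-biased gene lists and most other lists described below lose their calls in the table as deposited, and the main counts are repeated there. By the rank correlations, its columns labelled MCD diet match the arrays labelled standard diet with agonist.

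Defining hepatocyte markers were present in both groups, and 0 of 10 rose while 2 fell, among them the apolipoprotein gene Apoa1 (-1.13 (adjusted p = 0.00136)); under median scaling 1 fell. Albumin (Alb), the main secreted protein of hepatocytes, read 10.41, 10.08, 10.27 and 10.54 on standard diet and 9.80, 10.02, 9.80 and 10.11 on MCD diet. The groups overlapped, and the difference of -0.39 ± 0.24 did not pass the test (adjusted p = 0.221). The transcription factor Hnf4a, which maintains hepatocyte identity, differed by -0.37 (adjusted p = 0.321) and was not called either. The split of calls depends on the scaling: centring each array on its median gave 4423 genes higher and 1227 lower, quantile normalization 2813 and 2525, against 2320 and 3328 here. Normexp background correction gave 2261 higher and 5935 lower, and the table as deposited 450 and 744. Counts of a list under another setting are to be read against the split of that setting. The median difference of all genes was -0.13, and 0.23 under median scaling. Small falls are therefore the least certain calls, and named falls that are lost under median scaling are pointed out.

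The methionine cycle responded in both directions. Of 32 tested genes of the methionine and folate cycles 8 rose and 9 fell, with a median of -0.10, and under median scaling 12 rose and 2 fell. Only 4 fell without the third standard diet liver or the first or second MCD diet liver, and 5 without the fourth MCD diet liver. Mat2a, the form of methionine adenosyltransferase that is low in resting adult hepatocytes, read 5.29, 4.66, 4.84 and 4.69 on standard diet and 6.62, 7.57, 6.56 and 6.96 on MCD diet. Every MCD diet liver lay above every standard diet liver, a 4.16-fold difference (2.06 ± 0.29 (SE, adjusted p = 1.15e-05) on the log2 scale). Mat1a, the form that adult hepatocytes normally use, overlapped between the diets with a difference of 0.45 (adjusted p = 0.282). Mthfd1l, a mitochondrial enzyme that releases formate for the folate cycle, read -2.60, -2.67, -2.83 and -2.64 on standard diet and 1.03, 2.02, 0.92 and 1.77 on MCD diet. Its groups lay far apart, 17.4-fold on average (4.12 ± 0.35 (SE, adjusted p = 3.59e-09)). Mtrr, which reactivates methionine synthase, was well above background on 0 of 4 standard diet and 4 of 4 MCD diet arrays and was at least 2.07-fold higher on MCD diet (adjusted p = 5.23e-05). That rise did not hold with normexp background correction, where the difference was -0.24.

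Gnmt, which methylates glycine to remove surplus S-adenosylmethionine, read 9.14, 9.39, 9.21 and 9.52 on standard diet and 8.31, 7.98, 8.56 and 8.24 on MCD diet. The groups did not overlap and Gnmt fell by 1.04 (adjusted p = 0.00314), a call that is lost under median scaling at -0.68. Sardh, which demethylates the sarcosine made by Gnmt, read 6.93, 7.09, 7.19 and 7.42 and then 5.89, 5.90, 6.09 and 5.71 on MCD diet, and it fell without overlap (-1.26 ± 0.25 (SE, adjusted p = 6.80e-04)). Shmt2, the mitochondrial serine hydroxymethyltransferase, fell as well (-1.28 ± 0.27 (SE, adjusted p = 0.00117)), from 5.06, 6.07, 6.08 and 6.0 to 4.59, 4.97, 4.32 and 4.22. Bhmt, which remethylates homocysteine with choline-derived betaine, and Pemt, which makes phosphatidylcholine by methylation, did not pass: their differences were 0.22 (adjusted p = 0.658) and -0.01 (adjusted p = 0.985). Among 13 tested methyltransferases of small molecules 1 rose and 4 fell, but 2 rose and 1 fell under median scaling; the riser was the arsenic methyltransferase As3mt (1.58 (adjusted p = 0.00245)), whose groups overlapped.

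For choline itself, 0 of 24 tested genes of choline and phospholipid synthesis rose and 5 fell, with a median of -0.13; under median scaling 3 rose and 1 fell, and 2 fell without the first standard diet liver and 3 without the third MCD diet liver. Chpt1, which joins choline to diacylglycerol in the last step of phosphatidylcholine synthesis, read 4.74, 4.11, 4.59 and 4.56 on standard diet and 3.02, 2.01, 2.97 and 2.82 on MCD diet. The MCD diet livers were all lower (-1.79 ± 0.36 (SE, adjusted p = 6.11e-04)). Chka, the choline kinase that starts that pathway, differed by -0.30 (adjusted p = 0.383). Downstream of methionine, Csad, which makes taurine from cysteine products, read 5.32, 5.92, 6.35 and 6.37 on standard diet and 3.65, 3.11, 4.87 and 2.82 on MCD diet. It fell in every MCD diet liver relative to every standard diet liver (-2.38 ± 0.38 (SE, adjusted p = 6.49e-05)), and it was 1 of 4 falls, against 0 rises, among 15 tested genes of transsulfuration and glutathione synthesis. Under median scaling 2 of them rose and 1 fell; 2 fell without the first standard diet or the second MCD diet liver and 1 without the fourth MCD diet liver.

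Genes of the integrated stress response, the programme run by ATF4, were higher on MCD diet. Of its 20 tested genes 10 rose and 0 fell, with a median of 0.72, and the same 10 and 0 were counted under median scaling and quantile normalization. Without the second standard diet liver 9 rose, and in the table as deposited 1 rose and 1 fell. Promoters of the list are shown here because its members were chosen as known targets of ATF4, so that its matches are no independent evidence for the rises: 8 of its 18 genes with a promoter in the RefSeq table (44.4%) hold the letters TGATGNAA, the core of the amino acid response element that ATF4 binds with C/EBP partners, on either strand. The same letters are in 3.97% of all 32851 promoters of the table and in 2.95% of those of tested genes. Among genes called higher the share was 4.32%, and among the cytosolic tRNA synthetases, few of which rose, it was 41.7%. Of the 8 genes of the list with a match 6 rose, and of the 10 without one 4 rose. Each sequence below runs from 250 bases before to 50 bases after the start of the gene, on GRCm38.p6, in the direction of the gene, with the match in capitals. Asns, Trib3 and Nupr1 rose, while Chac1 holds the letters and did not pass.
Asns, chr6:7693160-7693459, minus strand: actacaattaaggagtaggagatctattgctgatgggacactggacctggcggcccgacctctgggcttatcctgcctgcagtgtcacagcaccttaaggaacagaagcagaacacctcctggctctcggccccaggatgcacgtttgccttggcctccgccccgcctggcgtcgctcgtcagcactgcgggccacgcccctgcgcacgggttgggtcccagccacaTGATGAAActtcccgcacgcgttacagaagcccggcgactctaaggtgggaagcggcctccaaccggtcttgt
Trib3, chr2:152344011-152344310, minus strand: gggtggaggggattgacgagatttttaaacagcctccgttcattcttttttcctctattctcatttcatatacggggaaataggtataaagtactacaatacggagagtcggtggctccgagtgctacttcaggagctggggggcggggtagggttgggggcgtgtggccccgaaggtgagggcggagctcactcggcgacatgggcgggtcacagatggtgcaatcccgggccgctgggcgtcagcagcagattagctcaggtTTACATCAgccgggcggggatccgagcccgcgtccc
Nupr1, chr7:126625421-126625720, minus strand: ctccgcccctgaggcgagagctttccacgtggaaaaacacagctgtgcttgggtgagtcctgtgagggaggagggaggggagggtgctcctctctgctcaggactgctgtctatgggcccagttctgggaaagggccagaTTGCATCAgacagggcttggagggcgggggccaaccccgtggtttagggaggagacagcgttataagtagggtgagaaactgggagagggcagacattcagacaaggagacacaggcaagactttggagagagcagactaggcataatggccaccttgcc
Chac1, chr2:119350992-119351291, plus strand: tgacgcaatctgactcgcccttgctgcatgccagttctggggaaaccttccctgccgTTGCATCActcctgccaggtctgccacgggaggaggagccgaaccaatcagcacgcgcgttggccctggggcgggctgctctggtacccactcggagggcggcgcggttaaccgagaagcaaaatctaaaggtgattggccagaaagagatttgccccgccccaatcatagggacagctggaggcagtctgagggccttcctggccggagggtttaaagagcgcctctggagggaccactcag
The match begins 23 bases before the start in Asns, 110 before it in Nupr1, 193 before it in Chac1 and 14 after it in Trib3. It lies on the strand of the gene in Asns and on the opposite strand in Trib3, Nupr1 and Chac1. A match is a description of the letters and not evidence of binding.

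Asns, which makes asparagine and is the textbook target of that element, read -1.17, -0.12, 0.03 and 0.39 on standard diet and 4.78, 4.74, 5.32 and 5.45 on MCD diet. The lowest MCD diet liver was more than 4 log2 units above the highest standard diet liver, and the mean difference was 39.1-fold (5.29 ± 0.41 (SE, adjusted p = 8.87e-10)). Nupr1, a small stress-induced nuclear protein, read 0.04, 0.19, -0.36 and -0.44 on standard diet and 5.72, 7.15, 4.86 and 5.83 on MCD diet, again with a wide gap (6.03 ± 0.61 (SE, adjusted p = 1.47e-07)). Trib3, a pseudokinase that feeds back on ATF4, rose from 2.72, 3.44, 1.75 and 2.13 to 7.74, 6.74, 6.51 and 5.83 with no overlap (4.19 ± 0.61 (SE, adjusted p = 2.01e-05)). The transcription factor Ddit3 (CHOP), which promotes cell death under lasting stress, read 0.06, 0.18, 0.35 and 0.39 and on MCD diet 2.78, 3.06, 2.48 and 1.81 (2.29 ± 0.37 (SE, adjusted p = 6.66e-05)). Fgf21, the fasting and protein-restriction hormone of the liver, read 0.20, -0.12, -0.11 and -0.31 on standard diet and 5.40, 4.51, 4.80 and 3.17 on MCD diet. Its standard diet livers lay close together and its MCD diet livers spread widely above them (4.56 ± 0.90 (SE, adjusted p = 5.89e-04)). Atf3, another stress transcription factor, rose (3.75 ± 0.79 (SE, adjusted p = 0.00101)), but its standard diet livers fell into a low pair and a higher pair, -2.27, -2.55, 1.56 and 0.81, and the rise was 3.1 without the second of them and 4.47 without the third.

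Not every target moved. Chac1, which degrades glutathione, read 2.92, 2.18, 3.19 and 3.37 on standard diet and 3.41, 3.67, 3.22 and 2.11 on MCD diet, with full overlap (0.19 (adjusted p = 0.793)). Gdf15, a stress hormone that reduces appetite, differed by 0.08 (adjusted p = 0.931), from 2.60, 3.57, 4.93 and 4.87 to 4.36, 4.53, 3.99 and 3.40. The mRNA of Atf4, a gene chosen after its values were seen because it is controlled by translation, differed by 0.13 (adjusted p = 0.78). The plot of one-carbon and stress genes by liver shows these values side by side.

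**Figure D1:**
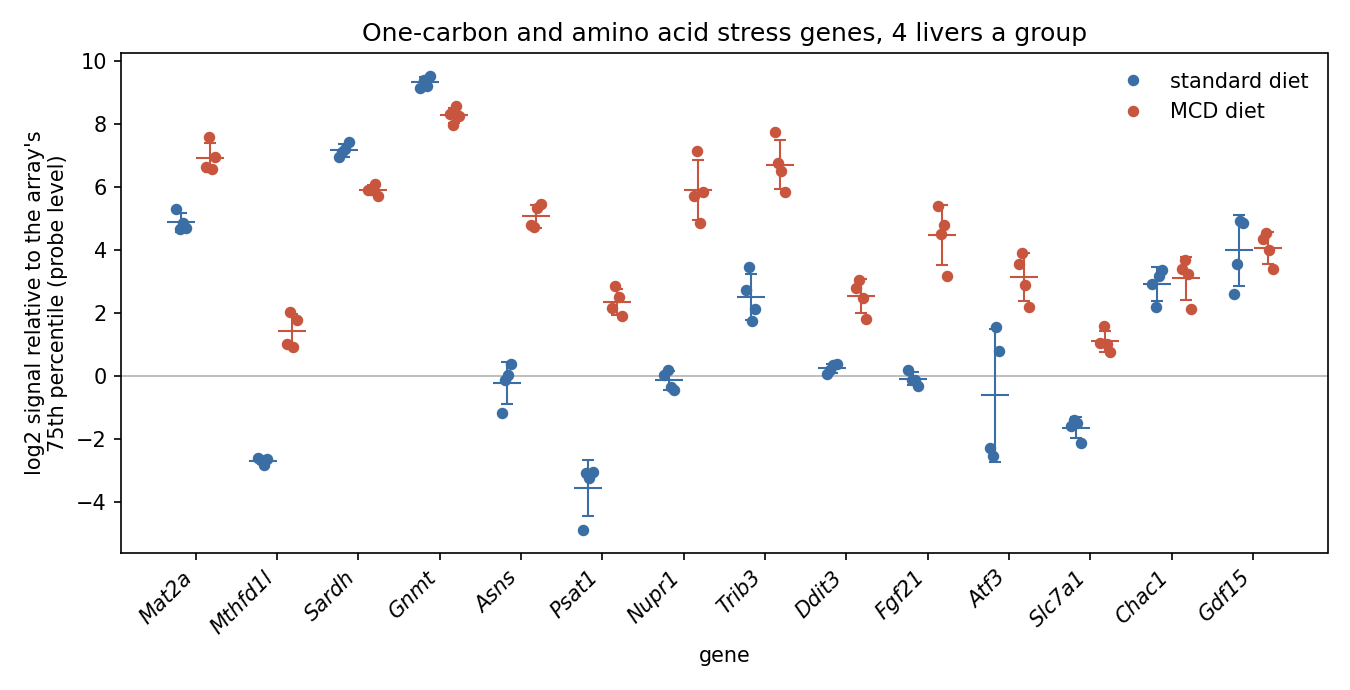
Levels of 14 one-carbon and amino acid stress genes in each liver, as log2 signal relative to the 75th percentile of the array (vertical axis), with standard diet in blue and MCD diet in red; points are livers, and the horizontal mark and whiskers are the mean ± SD of 4. The diets do not overlap for 12 genes, of which Sardh and Gnmt are lower on MCD diet, and they overlap for Chac1 and Gdf15.

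Genes that make non-essential amino acids, several of them known targets of ATF4, were higher in part. Of 9 tested genes of serine and asparagine synthesis 5 rose and 1 fell, with a median of 1.76 and the same counts under median scaling; with normexp background correction 3 rose and 1 fell. Psat1, the aminotransferase of serine synthesis, read -4.89, -3.07, -3.25 and -3.05 on standard diet and 2.14, 2.85, 2.51 and 1.89 on MCD diet. It was a 60.3-fold rise (5.91 ± 0.61 (SE, adjusted p = 2.15e-07)) in a gene near the detection limit on standard diet, where 3 of 4 arrays were above background. Phgdh, the first enzyme of that pathway, read -3.0, -2.13, -2.87 and -2.92 and -1.09, -0.27, -0.98 and -1.17 (1.85 ± 0.53 (SE, adjusted p = 0.0115)), a rise that is lost with normexp background correction at 0.90. Aldh18a1, which opens proline synthesis, also rose (2.33 ± 0.52 (SE, adjusted p = 0.00161)). The member that fell was Shmt2, described above. Among 21 tested amino acid transporters 5 rose and 1 fell, and 7 and 0 under median scaling. Slc7a1, which imports arginine and lysine, read -1.58, -1.38, -1.48 and -2.13 on standard diet and 1.05, 1.57, 1.01 and 0.78 on MCD diet (2.74 ± 0.44 (SE, adjusted p = 6.65e-05)), and Slc1a5, which imports glutamine, differed by 1.68 ± 0.31 (SE, adjusted p = 2.75e-04), without overlap in either case. Of 20 tested cytosolic tRNA synthetases 4 rose and 1 fell, and 7 and 0 under median scaling; 2 rose without the first, the third or the fourth standard diet liver or the third MCD diet liver, and 1 without the second MCD diet liver. Of 20 tested chaperones of the endoplasmic reticulum 0 rose and 4 fell, near the background share of falls, with 1 and 1 under median scaling and 4 and 4 with normexp background correction; 7 fell without the first standard diet liver and 2 without the third or the fourth MCD diet liver. Sdf2l1, a cofactor of the chaperone BiP and 1 of those falls, read 3.18, 3.34, 3.88 and 3.64 on standard diet and 1.05, 1.47, 0.81 and 1.05 on MCD diet and was lower in each MCD diet liver (-2.42 ± 0.42 (SE, adjusted p = 1.46e-04)).

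Redox genes were divided. NRF2 is the transcription factor that answers oxidants, and of 29 tested NRF2 targets and antioxidant genes 7 rose and 6 fell, with a median of -0.06. The letters TGACNNNGC, the core of the antioxidant response element, are in the promoters of 11 of the 25 listed genes that have one in the table (44%), against 12.4% of all promoters. The share was 16.3% among tested genes with a promoter, 18.2% among genes called higher and 14.95% among genes called lower. The list holds known NRF2 targets, so that its matches are no independent evidence for the rises or falls. Abcc4, an exporter in the hepatocyte's sinusoidal membrane that is induced when bile flow is blocked, read -2.05, -2.28, -1.40 and -1.69 on standard diet and 1.14, 0.73, 1.62 and 1.20 on MCD diet. The gap between the diets was wide (3.03 ± 0.40 (SE, adjusted p = 6.34e-06)). Srxn1, which repairs peroxiredoxins, read 2.55, 3.64, 4.03 and 3.99 and then 5.46, 6.34, 5.39 and 5.39 on MCD diet (2.09 ± 0.39 (SE, adjusted p = 3.30e-04)), and the carbonyl reductase Cbr3 rose (2.46 ± 0.43 (SE, adjusted p = 1.61e-04)). In the opposite direction, the glutathione transferase Gstp1 read 9.38, 9.16, 9.36 and 9.62 on standard diet and 7.06, 7.76, 7.31 and 7.01 on MCD diet. It fell without overlap (-2.09 ± 0.32 (SE, adjusted p = 3.91e-05)) and is a gene of higher level in male than in female mouse liver. The exporter Abcc3 (-1.54 ± 0.27 (SE, adjusted p = 1.41e-04)) and the glutathione peroxidase Gpx1 (-1.15 ± 0.22 (SE, adjusted p = 3.59e-04)) also fell. Hmox1, which breaks down haem, did not pass, with values of 2.98, 2.26, 1.88 and 2.74 and 3.91, 3.15, 3.33 and 4.69 that do not overlap (1.30 (adjusted p = 0.0633)), but was called under median scaling. The other tested probe of Hmox1 differed in the opposite direction.

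Metal-binding and iron-handling proteins rose in part. Of 28 tested genes of iron, haem and metallothionein 6 rose and 2 fell; under median scaling 9 rose and 0 fell. The metallothioneins, which bind zinc and copper, rose together: Mt2 read 2.69, 3.85, 1.93 and 3.16 on standard diet and 7.0, 7.59, 7.68 and 7.52 on MCD diet (4.54 ± 0.82 (SE, adjusted p = 2.65e-04)), and Mt1 differed by 3.52 ± 0.71 (SE, adjusted p = 6.99e-04). Neither gene overlapped between the diets. Lcn2, which withholds iron from bacteria, read 1.58, 2.26, 2.11 and 2.40 on standard diet and 8.22, 5.55, 7.66 and 7.24 on MCD diet, a 33.8-fold difference (5.08 ± 0.99 (SE, adjusted p = 5.19e-04)). The transferrin receptor Tfrc rose (1.35 ± 0.32 (SE, adjusted p = 0.00265)), while the iron hormone gene Hamp overlapped, at 8.13, 8.35, 8.16 and 8.62 and 6.54, 8.19, 5.82 and 7.69 (-1.25 (adjusted p = 0.159)). Of 27 tested acute phase genes only 4 rose and 2 fell, close to the background shares. Apcs, serum amyloid P and a classical acute phase protein of the mouse, rose from 2.11, 2.60, 2.76 and 3.08 to 6.31, 5.60, 6.63 and 7.05 (3.76 ± 0.43 (SE, adjusted p = 7.97e-07)), whereas Saa1, the serum amyloid A gene, overlapped completely, from 5.43, 5.85, 4.75 and 5.97 to 5.85, 4.81, 6.36 and 5.42 (0.11 (adjusted p = 0.932)). In the table as deposited 8 acute phase genes rose and 0 fell.

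Lipid genes did not move as a block. Of 23 tested genes of lipogenesis 0 rose and 5 fell, with a median of -0.43, and 1 rose and 4 fell under median scaling. Scd1, which desaturates stearate and is known to be lost in this model, read 7.69, 7.44, 6.96 and 7.34 on standard diet and 4.69, 4.72, 5.70 and 4.59 on MCD diet. Every MCD diet liver was lower (-2.43 ± 0.53 (SE, adjusted p = 0.00148)). Srebf1, the insulin-driven regulator of lipogenesis, read 2.55, 3.48, 2.54 and 2.77 and then 1.10, 1.29, 0.86 and 1.33 on MCD diet (-1.69 ± 0.36 (SE, adjusted p = 0.00122)), and Elovl3, which elongates fatty acids in male liver, read 4.78, 4.79, 5.50 and 5.34 and then -2.32, 0.05, 0.12 and -1.47, the largest fall named among these genes (-6.0 ± 1.34 (SE, adjusted p = 0.00175)). The fatty acid synthase gene Fasn overlapped and did not pass (-0.32 (adjusted p = 0.798)).

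Genes of triglyceride making and storage were higher in a few cases. Of 13 tested genes of triglyceride synthesis 3 rose and 0 fell, also under median scaling. Mogat2, an acyltransferase better known from the intestine, read -3.52, -2.06, -2.87 and -1.81 on standard diet and 2.58, 2.82, 3.27 and 2.59 on MCD diet. It rose without overlap (5.38 ± 0.66 (SE, adjusted p = 2.41e-06)). Of 31 tested genes of lipid uptake, droplets and lipolysis 6 rose and 7 fell. Cidec, which fuses lipid droplets, read -0.26, -0.74, -0.83 and -0.50 and then 3.20, 5.03, 2.60 and 3.67 on MCD diet (4.21 ± 0.64 (SE, adjusted p = 3.49e-05)), and the fatty acid receptor Cd36 read 0.07, 0.03, -0.35 and 0.04 and 2.04, 1.64, 2.57 and 2.41 (2.21 ± 0.43 (SE, adjusted p = 4.84e-04)). The droplet coat gene Plin2 overlapped with a difference of 0.00 (adjusted p = 0.999), and Pparg, the adipogenic transcription factor, differed by -0.26 (adjusted p = 0.391). The fatty acid binding protein Fabp5 fell, from 4.78, 6.51, 5.88 and 4.63 to 2.96, 3.02, 2.89 and 3.49 (-2.36 ± 0.45 (SE, adjusted p = 4.36e-04)); it was also the only member of the macrophage list described below that fell.

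For export, 1 of 21 tested genes of VLDL assembly and apolipoproteins rose and 6 fell, with a median of -0.31; under median scaling 3 rose and 3 fell. The riser was Apoa4, an apolipoprotein that enlarges secreted particles, which read 2.45, 1.27, 2.40 and 2.37 on standard diet and 5.70, 6.04, 5.28 and 5.27 on MCD diet (3.45 ± 0.42 (SE, adjusted p = 2.41e-06)). Pltp, which transfers phospholipid between particles, fell (-2.06 ± 0.43 (SE, adjusted p = 9.93e-04)). Mttp, which loads fat onto apolipoprotein B, read 3.58, 3.68, 3.47 and 3.63 and then 2.80, 2.60, 2.98 and 2.82, a small fall without overlap (-0.79 ± 0.21 (SE, adjusted p = 0.00566)) that is lost under median scaling at -0.42. Apob itself overlapped (-0.13 (adjusted p = 0.855)). Of 37 tested genes of fatty acid oxidation and ketogenesis 4 rose and 5 fell, close to the background shares. Cpt1a, the gate to mitochondrial oxidation, differed by 0.48 (adjusted p = 0.0988), and its regulator Ppara by 0.33 (adjusted p = 0.502). The acyl-CoA thioesterases split although they are close paralogs: cytosolic Acot1 read 4.73, 4.28, 3.92 and 4.23 on standard diet and 0.55, 1.10, 2.11 and 1.51 on MCD diet (-2.97 ± 0.64 (SE, adjusted p = 0.00127)), whereas mitochondrial Acot2 read -2.51, -3.40, -3.50 and -3.35 and 0.10, -0.12, -0.54 and 0.08 (3.07 ± 0.56 (SE, adjusted p = 2.58e-04)). Peroxisomal Acot3 rose as well (3.04 ± 0.60 (SE, adjusted p = 6.15e-04)). Acaa1b, a peroxisomal thiolase, fell from 8.01, 7.61, 8.05 and 7.97 to 4.72, 5.33, 5.77 and 6.04 (-2.44 ± 0.44 (SE, adjusted p = 2.54e-04)). Probes of such similar genes may share signal, which was not tested.

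Of 30 tested genes of bile acid synthesis and transport 4 rose and 7 fell, and 6 rose and 6 fell under median scaling. Gpbar1, the membrane receptor for bile acids, read -1.17, -0.80, -0.77 and -0.48 on standard diet and -2.58, -2.65, -2.46 and -2.66 on MCD diet. The MCD diet livers were tightly grouped below the others (-1.78 ± 0.22 (SE, adjusted p = 2.91e-06)). Cyp27a1, the first enzyme of the acidic pathway of synthesis, fell from 5.08, 2.98, 4.12 and 4.10 to 2.29, 1.65, 1.79 and 1.83 (-2.18 ± 0.37 (SE, adjusted p = 1.03e-04)), and Cyp39a1, an oxysterol hydroxylase, rose from 2.61, 2.37, 2.0 and 2.11 to 4.13, 4.22, 4.6 and 5.02 (2.22 ± 0.32 (SE, adjusted p = 2.01e-05)). Slc51b, a subunit of the basolateral bile acid exporter, rose (2.54 ± 0.67 (SE, adjusted p = 0.0062)). The rate-limiting enzyme gene Cyp7a1 (0.70 (adjusted p = 0.59)) and the export pump gene Abcb11 (0.04 (adjusted p = 0.939)) overlapped. Cyp8b1, which makes cholic acid, did not overlap, at 3.35, 2.35, 3.50 and 2.16 and 0.99, 0.50, 1.44 and 0.07, but did not pass (-2.09 (adjusted p = 0.171)).

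Sex-biased genes of hepatocytes shifted from the male towards the female pattern. In mice, pulses of growth hormone in males and its steady presence in females set the sex bias of many liver genes through STAT5b, with BCL6 repressing female genes in males and CUX2 acting in females. All livers were male. Of 22 tested female-biased genes 16 rose and 0 fell, with a median of 3.25, or 3.24 with the 5 genes that were above background on no standard diet array set at their lower bound. Of 25 tested male-biased genes 0 rose and 17 fell, with a median of -2.23. Under median scaling the counts were 17 and 0 for the female-biased list and 0 and 14 for the male-biased list, and without the second standard diet liver 15 and 0, and 0 and 14. In the table as deposited 0 and 2 were counted for each list.

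The female cytochrome P450 genes Cyp3a44 and Cyp2b13 were above background on 0 standard diet arrays and all 4 MCD diet arrays. Cyp3a44 was at least 763-fold higher (adjusted p = 1.29e-11) and Cyp2b13 at least 76.2-fold (adjusted p = 5.34e-16). The female-biased organic anion transporter gene Slc22a27 was at least 40.2-fold higher in the same way (adjusted p = 3.59e-09). Sult1e1, the estrogen sulfotransferase, read -5.82, -3.34, -3.48 and -3.37 on standard diet and 4.30, 5.23, 5.0 and 5.85 on MCD diet (9.10 ± 1.43 (SE, adjusted p = 4.61e-05)), and the difference was 8.49 without the first standard diet liver. Cyp2b9 read -2.11, -2.40, -6.41 and -4.25 and 2.43, 1.71, 1.88 and 1.42 (5.65 ± 0.60 (SE, adjusted p = 3.07e-07)), or 4.78 without the third. Close members of these P450 families may share signal.

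Among male-biased genes, Cyp4a12a, a fatty acid hydroxylase that is a standard marker of male mouse liver, read 6.55, 6.23, 6.90 and 6.46 on standard diet and -0.06, 0.34, 1.04 and 0.57 on MCD diet, a 66.9-fold fall (-6.06 ± 0.90 (SE, adjusted p = 2.64e-05)). The steroid hydroxylase gene Cyp2d9 read 7.85, 7.61, 7.54 and 7.58 and 5.25, 4.88, 5.03 and 5.59 (-2.46 ± 0.40 (SE, adjusted p = 8.19e-05)). The complement component C6 read 5.73, 6.04, 5.86 and 6.41 on standard diet and 3.34, 2.76, 3.34 and 2.89 on MCD diet (-2.93 ± 0.41 (SE, adjusted p = 1.12e-05)). In each case all MCD diet livers lay below all standard diet livers.

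The growth hormone axis itself moved less. Of 26 tested genes 5 rose and 8 fell, with a median of -0.41, and under median scaling 6 rose and 3 fell. Stat5b read 3.57, 3.66, 3.68 and 3.51 on standard diet and 2.85, 2.49, 2.86 and 2.58 on MCD diet, without overlap (-0.91 ± 0.21 (SE, adjusted p = 0.00254)), and Igf1, the main circulating product of growth hormone action, fell (-0.97 ± 0.28 (SE, adjusted p = 0.0105)). The growth hormone receptor gene Ghr overlapped, at 4.89, 6.56, 6.63 and 6.22 and 4.84, 4.62, 5.09 and 5.03 (-1.18 ± 0.43 (SE, adjusted p = 0.0435)). The falls of Stat5b (-0.54), Igf1 (-0.60) and Ghr (-0.81) are all lost under median scaling, and that of Ghr is also lost when any one of the 8 livers but the first standard diet liver is left out (-1.24 to -1.0). Bcl6 read 3.72, 5.83, 3.20 and 2.79 on standard diet and 1.61, 1.28, 1.76 and 2.70 on MCD diet (-2.05 ± 0.52 (SE, adjusted p = 0.00465)); its second standard diet liver was far above the others, and without it the difference was -1.40. Lifr, the receptor for leukaemia inhibitory factor, fell from 6.27, 4.87, 6.69 and 5.79 to 3.24, 2.66, 3.83 and 3.62 (-2.56 ± 0.61 (SE, adjusted p = 0.00289)). Trim24, a co-regulator of nuclear receptors, rose from 0.06, 2.71, 0.65 and 0.56 to 3.96, 3.58, 4.24 and 4.03 (2.95 ± 0.40 (SE, adjusted p = 7.78e-06)). The estrogen receptor gene Esr1 rose (1.18 ± 0.31 (SE, adjusted p = 0.00657)). Cux2 read -4.54, -4.14, -3.99 and -4.31 and -2.08, -4.04, -1.30 and -2.29, where the second MCD diet liver remained within the standard diet range, and did not pass (1.82 (adjusted p = 0.0983)). Socs2, a direct growth hormone target, overlapped (-0.24 (adjusted p = 0.607)).

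**Figure D2:**
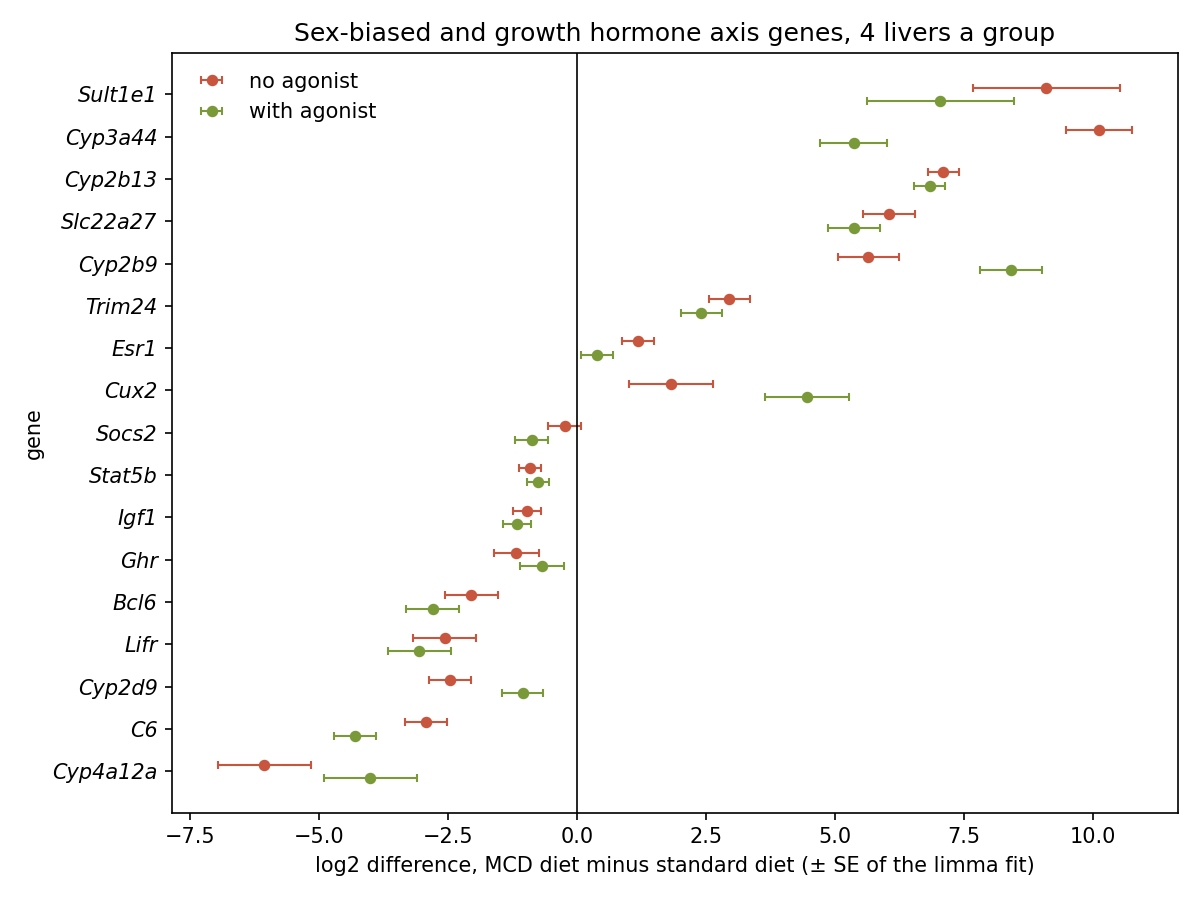
Log2 difference between MCD diet and standard diet (horizontal axis, ± SE of the limma fit, 4 livers a group) for 17 sex-biased and growth hormone axis genes, without the agonist in red and with it in green. The 5 female-biased genes at the top lie between 5.65 and 10.12 without the agonist, and the 3 male-biased genes at the bottom between -6.06 and -2.46; the fitted values of Cyp3a44, Cyp2b13 and Slc22a27 are not bounds, because no standard diet array measured them.

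Among other metabolic functions of hepatocytes, falls outnumbered rises in some lists and not in others. Of 33 tested genes of glycolysis, gluconeogenesis and glycogen 5 rose and 3 fell, of 28 respiratory chain subunits 1 rose and 2 fell, and of 19 markers of pericentral hepatocytes 6 rose and 3 fell. Of 26 tested xenobiotic P450s and regulators 4 rose and 12 fell, with a median of -0.83; under median scaling 5 rose and 4 fell. Cyp2c38 read 8.08, 8.0, 7.33 and 7.36 on standard diet and 4.92, 4.46, 5.41 and 4.96 on MCD diet, without overlap (-2.76 ± 0.40 (SE, adjusted p = 1.92e-05)). Cyp2b10, the classical target of the xenobiotic receptor CAR and higher in females, went the other way, from 3.23, 3.76, -0.48 and 2.84 to 5.73, 5.84, 6.25 and 5.40 (3.47 ± 0.61 (SE, adjusted p = 1.88e-04)); without the third standard diet liver, which was low, the rise was 2.53. Cyp1a1, the target of the aryl hydrocarbon receptor, also rose (2.62 ± 0.53 (SE, adjusted p = 6.82e-04)). Of 35 tested genes that break down amino acids or make urea 0 rose and 13 fell, with a median of -0.57, and 0 and 5 under median scaling. Amdhd1, of histidine breakdown, read 5.56, 6.22, 5.93 and 6.09 on standard diet and 3.95, 3.87, 4.4 and 4.08 on MCD diet (-1.88 ± 0.28 (SE, adjusted p = 2.44e-05)), and Haao, of tryptophan breakdown, read 8.65, 8.12, 7.97 and 8.75 and 6.37, 6.24, 6.70 and 6.04 (-2.04 ± 0.36 (SE, adjusted p = 1.60e-04)). Neither gene overlapped between the diets.

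Of 39 tested genes of complement and coagulation 4 rose and 16 fell, with a median of -0.45, and 4 and 8 under median scaling. Falls included the coagulation factor F7 (-1.42 ± 0.25 (SE, adjusted p = 1.69e-04)) and the terminal complement genes C8a, which read 5.57, 5.73, 6.71 and 5.90 on standard diet and 4.11, 4.02, 4.83 and 4.06 on MCD diet (-1.72 ± 0.31 (SE, adjusted p = 2.30e-04)), and C9 (-1.89 ± 0.40 (SE, adjusted p = 0.00116)). The member C1qa, which macrophages make rather than hepatocytes, rose from 1.31, 2.05, 1.34 and 1.29 to 4.21, 2.69, 3.44 and 3.35 (1.92 ± 0.50 (SE, adjusted p = 0.00597)). Single metabolic genes rose against this: the aldehyde dehydrogenase Aldh1b1 (1.78 ± 0.28 (SE, adjusted p = 4.59e-05)) and Hk2, a hexokinase that adult hepatocytes lack, which was above background on 1 of 4 standard diet and 4 of 4 MCD diet arrays (2.69 ± 0.57 (SE, adjusted p = 0.00113)) and lost its call with normexp background correction at 0.71. The fetal liver protein gene Afp read -3.03, -2.14, -1.31 and -1.78 on standard diet and 1.82, 2.46, 2.52 and 2.31 on MCD diet, a 20.2-fold difference (4.34 ± 0.48 (SE, adjusted p = 5.34e-07)). Its MCD diet livers were tightly grouped far above the others.

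**Figure D3:**
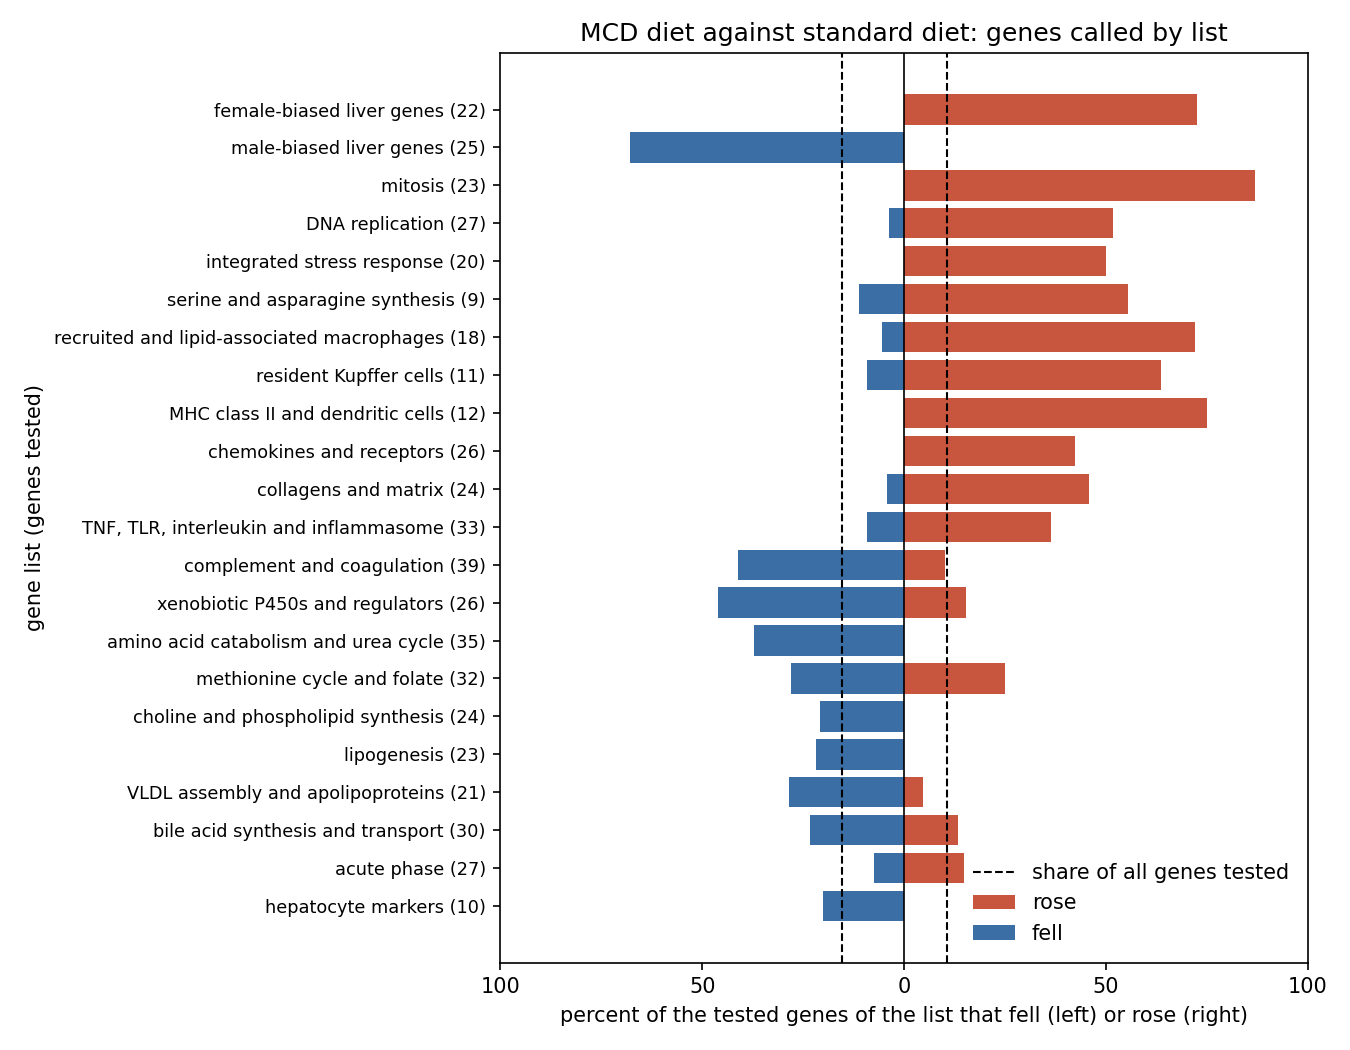
Share of the tested genes of 22 lists that fell (blue, to the left) or rose (red, to the right) on MCD diet, in percent, with the number tested in brackets; dashed lines mark the shares of all genes tested, 15.3% lower and 10.7% higher. Mitosis, female-biased, MHC class II and macrophage lists reach farthest to the right, and the male-biased list farthest to the left.

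Cell cycle genes rose. Of 23 tested genes of mitosis 20 rose and 0 fell, with a median of 2.70; 23 rose under median scaling and 22 without the second standard diet liver, and 0 rose in the table as deposited. Mki67, the proliferation antigen, read -2.12, -1.46, -1.67 and -1.84 on standard diet and 1.64, 1.6, 1.44 and 0.20 on MCD diet. All MCD diet livers were higher, the fourth least so (2.99 ± 0.63 (SE, adjusted p = 0.00109)). The kinesin gene Cenpe read -4.03, -3.69, -3.92 and -3.98 and -0.15, 0.42, 0.07 and -1.64 (3.58 ± 0.65 (SE, adjusted p = 2.42e-04)), the kinesin gene Kif20a read -2.97, -2.75, -2.98 and -3.34 and 0.78, 0.09, 0.28 and -0.95 (3.06 ± 0.55 (SE, adjusted p = 2.43e-04)), and Cdc20, which activates the anaphase complex, read -0.97, -1.07, -1.77 and -1.64 and 2.80, 3.11, 2.75 and 0.55 (3.66 ± 0.70 (SE, adjusted p = 4.17e-04)). The fourth MCD diet liver was again the lowest of its group in each of these genes. Of 27 tested genes of DNA replication 14 rose and 1 fell, with a median of 0.98, and 20 and 0 under median scaling. The replicative helicase gene Mcm2 read -3.13, -2.33, -1.76 and -2.03 on standard diet and 0.18, 0.18, -0.22 and -0.67 on MCD diet (2.18 ± 0.40 (SE, adjusted p = 2.51e-04)), and Ccne1, the cyclin of S phase entry, rose as well (2.27 ± 0.36 (SE, adjusted p = 4.69e-05)). Ccnd1, the cyclin of the commitment to divide, read 1.70, 2.63, 2.89 and 2.24 and 5.40, 5.97, 4.83 and 5.98 (3.18 ± 0.48 (SE, adjusted p = 3.12e-05)). Which cells were dividing was not tested.

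Of 29 tested growth factors and receptors 9 rose and 3 fell; with normexp background correction 5 rose and 5 fell, and 4 rose without the first standard diet liver and 5 without the fourth MCD diet liver. Areg, a ligand of the epidermal growth factor receptor, was above background on 0 standard diet and 4 MCD diet arrays and was at least 6.17-fold higher (adjusted p = 3.83e-05). Its family receptor Erbb3, found in hepatocytes, fell from 0.41, -0.94, -0.51 and -0.47 to -1.49, -2.36, -2.54 and -2.38 (-1.82 ± 0.28 (SE, adjusted p = 3.37e-05)). Met, the receptor for hepatocyte growth factor, fell too (-1.02 ± 0.21 (SE, adjusted p = 8.30e-04)).

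Macrophage genes were higher as a group. Kupffer cells are the resident macrophages of the liver, and in steatohepatitis they are joined by monocyte-derived cells that handle lipid. Of 18 tested markers of recruited and lipid-associated macrophages 13 rose and 1 fell, with a median of 2.06; the counts were 14 and 1 under median scaling, 13 and 1 without the second standard diet liver, 8 and 1 with normexp background correction, and 3 and 0 in the table as deposited. Trem2, the lipid receptor that defines such cells, read -2.24, -1.03, -2.37 and -2.35 on standard diet and 2.82, 2.48, 2.28 and 2.89 on MCD diet. It rose 24.5-fold (4.62 ± 0.82 (SE, adjusted p = 1.87e-04)). The glucan receptor Clec7a read -1.03, -0.57, -1.68 and -0.92 and 3.06, 2.24, 2.27 and 3.98 (3.94 ± 0.65 (SE, adjusted p = 9.06e-05)), the integrin gene Itgax read -2.71, -2.01, -2.59 and -2.39 and 0.26, 0.46, 0.10 and 1.07 (2.90 ± 0.57 (SE, adjusted p = 5.74e-04)), and Lgals3, galectin-3, read 0.45, 1.07, 0.10 and 0.53 and 3.39, 3.57, 3.43 and 4.64 (3.22 ± 0.71 (SE, adjusted p = 0.00148)). None of the 4 overlapped between the diets. Gpnmb, a lysosomal membrane glycoprotein, was above background on 0 standard diet and 4 MCD diet arrays and was at least 18.9-fold higher (adjusted p = 0.00678), a call lost with normexp background correction. Atp6v0d2, a subunit of the lysosomal proton pump in macrophages, read -3.28, -2.25, -2.37 and -2.45 on standard diet and 0.96, 1.39, 2.26 and 2.24 on MCD diet (4.30 ± 0.76 (SE, adjusted p = 1.84e-04)). Spp1, osteopontin, did not pass: its values of 1.41, 0.81, 1.52 and 1.79 and 2.08, 1.94, 1.98 and 2.50 did not overlap, and the difference was 0.74 (adjusted p = 0.421).

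Of 11 tested markers of resident Kupffer cells 7 rose and 1 fell, with a median of 1.29, and 2 rose and 0 fell in the table as deposited. Under median scaling 9 rose and 0 fell. Vsig4, a complement receptor, read 1.47, 2.66, 2.21 and 2.37 on standard diet and 4.93, 3.21, 5.03 and 4.75 on MCD diet (2.30 ± 0.45 (SE, adjusted p = 5.03e-04)). Clec4f, a lectin specific to Kupffer cells in the mouse, rose (1.29 ± 0.36 (SE, adjusted p = 0.00915)), from 3.60, 4.18, 3.02 and 3.37 to 5.41, 4.27, 4.88 and 4.76, and lost its call with normexp background correction at 0.93. Timd4, a marker of long-lived Kupffer cells, overlapped and did not pass (0.98 (adjusted p = 0.0726)). The second MCD diet liver was the lowest of its group for Vsig4, Clec4f and Timd4.

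Genes of antigen presentation rose too. Of 12 tested genes of MHC class II and dendritic cells 9 rose and 0 fell, with a median of 1.6; 10 rose under median scaling, and in the table as deposited 0 rose and 1 fell. H2-Aa and H2-Ab1 encode the chains of the class II molecule I-A: H2-Aa read 0.51, 0.36, -0.82 and -0.17 on standard diet and 2.21, 1.37, 2.42 and 1.56 on MCD diet (1.92 ± 0.40 (SE, adjusted p = 9.65e-04)), and H2-Ab1 rose (1.65 ± 0.41 (SE, adjusted p = 0.0045)). The dendritic cell lectins Clec9a (2.27 ± 0.46 (SE, adjusted p = 7.06e-04)) and Cd209a (2.32 ± 0.46 (SE, adjusted p = 5.84e-04)) rose too, the latter not with normexp background correction, where it differed by 0.52.

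Of 26 tested chemokines and receptors 11 rose and 0 fell, with a median of 1.43. With normexp background correction 5 rose and 0 fell, and in the table as deposited 3 and 0. Without the third standard diet liver 7 rose, without the fourth 4, and without the fourth MCD diet liver 5. Ccl5, which draws T cells and monocytes, read 0.52, 1.14, 0.42 and 0.56 on standard diet and 2.21, 1.95, 2.40 and 3.14 on MCD diet, without overlap (1.76 ± 0.27 (SE, adjusted p = 4.23e-05)). Ccl2, the main attractant of monocytes, read -1.03, -0.75, -0.61 and -0.66 and 1.65, 1.86, 0.93 and 2.52, also without overlap, but at 2.50 (adjusted p = 0.0549) it did not pass; it passed in the fit to the 8 arrays alone (adjusted p = 0.000586). Ccl7 rose (3.28 ± 1.03 (SE, adjusted p = 0.0195)), or 3.92 without the second standard diet liver. It was above background on 2 of 4 standard diet arrays, and Ccl4 on 1 of 4 (3.21 ± 0.80 (SE, adjusted p = 0.00395)). Both lost their call with normexp background correction, and Ccl7 lost it without the first (2.83) or the fourth (2.93) standard diet liver or the fourth MCD diet liver (3.0).

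Of 33 tested genes of tumour necrosis factor, Toll-like receptor and interleukin signalling 12 rose and 3 fell; under median scaling 19 rose and 1 fell, and with normexp background correction 7 and 3. The receptor gene Tnfrsf1a read 3.42, 3.64, 3.27 and 3.52 on standard diet and 4.70, 4.62, 4.74 and 4.79 on MCD diet. Its groups were tight and apart (1.25 ± 0.21 (SE, adjusted p = 1.11e-04)). Tnfrsf1b rose as well (1.6 ± 0.30 (SE, adjusted p = 3.89e-04)), and the adhesion molecule Vcam1 read -0.26, 0.95, -0.15 and 0.41 and 2.91, 2.34, 2.91 and 2.94 (2.54 ± 0.54 (SE, adjusted p = 0.00123)). Tlr5, the flagellin receptor, fell from -0.99, -1.03, -1.24 and -2.44 to -2.92, -3.16, -3.25 and -3.02 (-1.66 ± 0.43 (SE, adjusted p = 0.00539)). The cytokine genes Tnf (1.65 (adjusted p = 0.0935)) and Il1b (0.81 (adjusted p = 0.127)) did not overlap between the diets and did not pass. Of 29 tested interferon-stimulated genes 7 rose and 3 fell, but 3 rose without the first standard diet liver and 4 without the fourth standard diet or the second or the third MCD diet liver. Among the rises was the antiviral gene Mx1 (2.16 ± 0.47 (SE, adjusted p = 0.00147)).

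Other blood cells gave a mixed picture. Of 13 tested neutrophil genes 2 rose and 0 fell, namely the calprotectin subunits S100a8, which read -3.29, -2.24, -3.17 and -2.38 on standard diet and 0.63, -0.84, -0.01 and 1.35 on MCD diet (3.06 ± 0.65 (SE, adjusted p = 0.0012)), and S100a9 (2.57 ± 0.63 (SE, adjusted p = 0.0038)), which monocytes also express. Of 16 tested T and NK cell genes 4 rose and 2 fell, and with normexp background correction 0 rose and 2 fell. The median of the list was 0.49, and its differences ran from -2.66 to 2.11. Its falls are all named here, and of its rises only Cd3d. The members disagreed: Cd4, the helper cell co-receptor, read 6.68, 7.16, 6.10 and 5.99 on standard diet and 3.95, 3.88, 3.87 and 3.60 on MCD diet and fell (-2.66 ± 0.36 (SE, adjusted p = 8.00e-06)), Cd3e fell (-1.12 ± 0.19 (SE, adjusted p = 1.33e-04)), and Cd3d rose by 0.98 with overlapping groups (0.98 ± 0.26 (SE, adjusted p = 0.00634)). The rise of Cd3d was lost with normexp background correction.

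Matrix genes rose in part after 3 weeks. Of 24 tested collagens and matrix genes 11 rose and 1 fell, with a median of 0.91; with normexp background correction 6 rose and 2 fell, and 5 to 7 rose when any one liver other than the fourth standard diet liver was left out. The one that fell was the proteoglycan Vcan (-1.19 (adjusted p = 0.00207)), lost under median scaling at -0.82. Sparc, which binds collagen, read 4.31, 4.20, 4.38 and 4.55 on standard diet and 5.59, 5.63, 5.75 and 5.82 on MCD diet. Its groups were compact and separate (1.34 ± 0.22 (SE, adjusted p = 9.12e-05)). Dcn, decorin, read 5.86, 6.32, 6.14 and 6.35 and 7.83, 7.48, 8.51 and 7.43 (1.64 ± 0.32 (SE, adjusted p = 5.42e-04)). Col1a1, the main collagen of scars, did not overlap, at -1.44, -0.29, -0.12 and -1.12 and 0.65, 0.88, 1.17 and 0.89, yet did not pass (1.64 (adjusted p = 0.0571)). Of 21 tested genes of matrix remodelling 9 rose and 0 fell, and 4 and 0 with normexp background correction. The rises included the protease inhibitor Timp1 (3.60 ± 0.89 (SE, adjusted p = 0.00389)), lost with normexp background correction, and the protease Ctss, cathepsin S of macrophages (2.59 ± 0.54 (SE, adjusted p = 0.00101)). Of 14 tested markers of stellate cells and fibroblasts 4 rose and 0 fell, or 2 and 0 without the first MCD diet liver. Pdgfra, a receptor of fibroblasts, read -1.82, -1.16, -1.79 and -1.80 on standard diet and 0.24, -0.08, 0.35 and 0.54 on MCD diet (1.90 ± 0.26 (SE, adjusted p = 1.01e-05)), whereas Acta2, the actin of activated myofibroblasts, overlapped (-0.79 (adjusted p = 0.318)). Of 17 tested markers of cholangiocytes and progenitors 1 rose and 1 fell. The riser was the keratin Krt23, which stress is known to raise in mouse liver (3.1 ± 0.66 (SE, adjusted p = 0.00122)), while the bile duct keratin Krt19 did not pass (-1.45 (adjusted p = 0.0806)). Markers of tissues that could be carried over at dissection were not raised: 0 of 9 tested pancreatic acinar and 0 of 6 erythroid genes rose, and 1 of each fell, the protease Ctrb1 (-2.46 (adjusted p = 6.56e-04)) and the haem enzyme Alas2 (-1.76 (adjusted p = 0.00369)). Of 7 adipocyte genes Cidec rose, which fatty hepatocytes also express, and adipsin, Cfd, fell (-4.34 (adjusted p = 0.0173)), a call lost without the first standard diet (-3.95) or the first MCD diet liver (-3.54).

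The livers that had received the agonist lay on another slide, again with the diets in separate rows. A slide effect shared by both rows cancels where diet differences are compared. An effect that differs between the rows cannot be told apart from the agonist. The interaction is the diet difference with the agonist minus that without it. The exchange of columns leaves the interaction untouched, since the exchanged groups only trade places within the sum. It was called for 11.1% of all genes tested, 1336 higher and 1072 lower, a split that became 262 and 2462 under median scaling. Of 23 genes of mitosis 17 had a lower diet difference with the agonist and 0 a higher one, and the median diet difference was -0.63 with the agonist against 2.70 without it. Of 11 Kupffer cell genes 7 and 0, of 12 MHC class II and dendritic cell genes 9 and 0 and of 26 chemokines and receptors 11 and 0 were called lower and higher. The median diet differences with the agonist were -1.07, -0.69 and -0.59 in these lists. Under median scaling 21, 7, 10 and 14 genes of the 4 lists were called lower and 0 higher. The chemokine count was 7 with normexp background correction and, with single livers left out, 6 without the fourth MCD diet liver or the first standard diet liver with agonist, and 7 without the first standard diet liver, the third standard diet liver with agonist or the third MCD diet liver with agonist. Of the MHC class II and dendritic cell genes 5 were called lower in the processed table.

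Of 27 DNA replication genes 2 were called lower, 6 under median scaling, 5 with normexp background correction and 4 without the second standard diet liver with agonist, and the median diet difference was 0.65 with the agonist. Of 25 male-biased genes 0 had a called interaction, with a median diet difference of -2.05 with the agonist against -2.23 without it; under median scaling or with normexp background correction 2 were called lower. Of 22 female-biased genes 4 were called higher and 1 lower, and the median was 4.18 with the agonist. Only 1 was called higher under median scaling or without the first or second standard diet liver or the second MCD diet liver, and 2 without the third MCD diet liver or the second standard diet liver with agonist. A count of 0 does not show equal differences. In the stress response list 6 of 20 were called lower. Asns had a diet difference of 1.59 with the agonist against 5.29 without it (interaction -3.70, adjusted p = 3.81e-04), whereas that of Trib3 was 4.26 with the agonist against 4.19 without it (interaction 0.06, adjusted p = 0.972). For 35 genes of amino acid catabolism 8 interactions were called higher and 0 lower, but 1 and 0 under median scaling and 5 and 0 without the third MCD diet liver with agonist.

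Among the genes with the largest interactions, Lcn2 had a diet difference of -0.10 with the agonist against 5.08 without it (interaction -5.18, adjusted p = 0.0172) and Ccl2 one of -2.87 with the agonist against 2.50 without it (interaction -5.37, adjusted p = 0.0121). An interaction can come from livers of either diet, and the levels with the agonist are not printed here. In the table as deposited, the MCD diet columns match the standard diet arrays with agonist. There Lcn2 differed by 4.54, Mt2 by 5.47, Mt1 by 3.67 and Asns by 2.92, and all were called. Nupr1 (0.77) and Ddit3 (0.51) were not called there. The sign of an interaction therefore does not say in which diet the livers with agonist differed. The macrophage gene Ms4a6d gave -2.18 with the agonist against 3.14 without it (interaction -5.32, adjusted p = 0.00279). Larger diet differences with the agonist were seen for Ppargc1b, a coactivator of mitochondrial genes, at 4.06 with the agonist against -0.82 without it (interaction 4.87, adjusted p = 4.23e-04), and for the clock genes Dbp and Nr1d1. Dbp gave 5.68 with the agonist against 1.23 without it (interaction 4.45, adjusted p = 0.0155) and Nr1d1 2.85 with the agonist against -1.32 without it (interaction 4.18, adjusted p = 4.37e-04). Without the agonist Dbp overlapped (1.23 (adjusted p = 0.281)) and Nr1d1 fell from 3.73, 3.20, 2.85 and 2.90 to 1.94, 1.71, 2.09 and 1.63 (-1.32 (adjusted p = 0.0375)), a call that is lost under median scaling at -0.96 and without the first or second standard diet liver or any one MCD diet liver (-1.41 to -1.14). The time of day of sampling is not given in the labels. The agonist's own receptors showed no called diet difference: Gcgr read 7.47, 7.40, 7.33 and 7.67 on standard diet and 7.02, 7.57, 7.43 and 7.62 on MCD diet (-0.06 (adjusted p = 0.885)), and Glp1r, near background on standard diet, differed by -0.89 (adjusted p = 0.166).

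**Figure D4:**
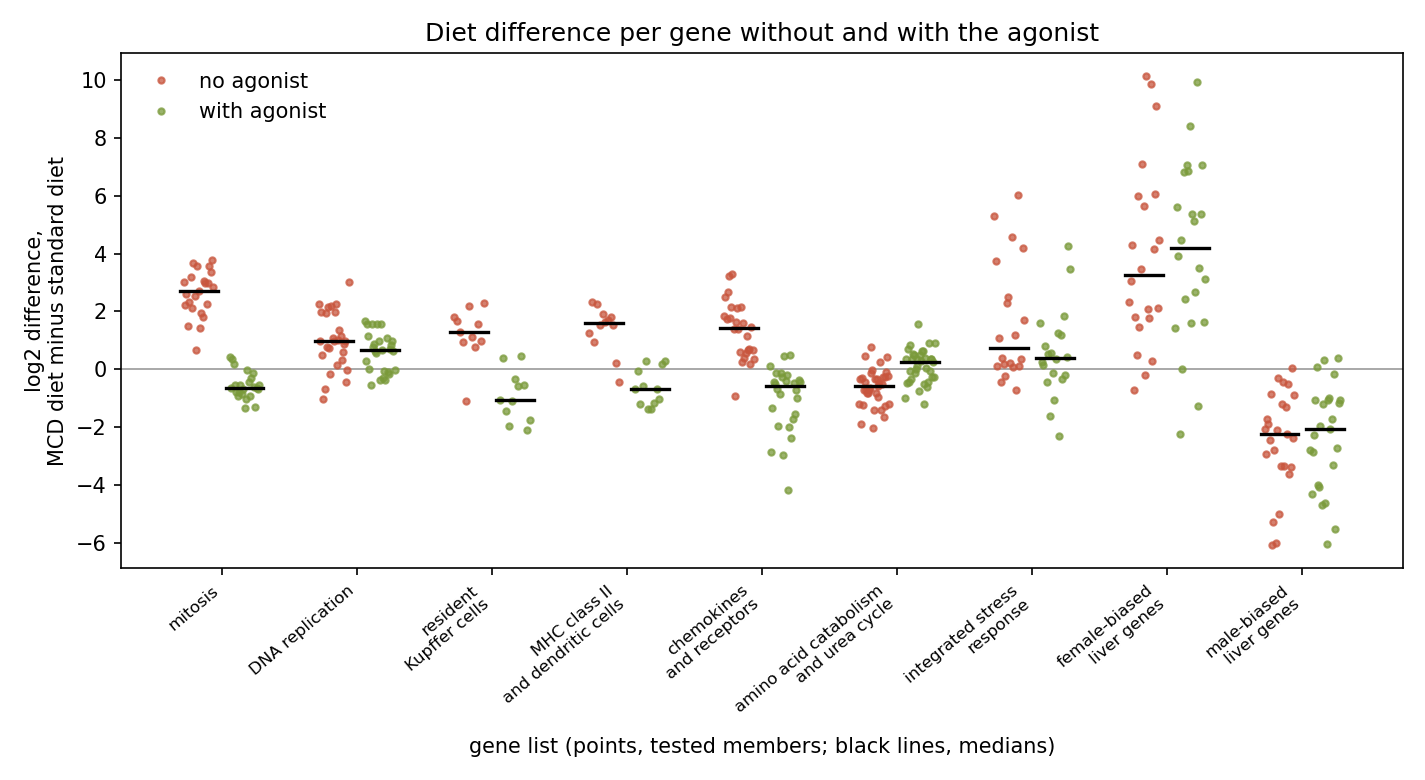
Log2 difference between MCD diet and standard diet for each tested gene of 9 lists (vertical axis; points are genes, black lines medians), without the agonist in red and with it in green. The medians of mitosis, Kupffer cell, MHC class II and chemokine genes are above 0 without the agonist and below 0 with it, whereas those of the female-biased and male-biased lists stay on their side.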

How the data were processed

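Total RNA of 32 frozen mouse livers was labelled with Cy3 and hybridised to one-colour arrays, per the labels' protocols. The deposited scanner files hold spot brightness as linear intensity, background-subtracted by Feature Extraction 10.7.3.1 per the file headers. A deposited value table is in log2 units, judged from its values, and the submitters' processing notes name limma for it; its centring is unknown, and its 8 columns labelled as these groups have medians of 6.53 to 6.55. It served only as an alternative, as deposited and with columns placed at matching arrays. Groups come from the labels.

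Computed here: log2 of the processed signal minus the 75th percentile of the array, outlier spots left out (0.264%), spots of a probe averaged, a probe entering (30139 did) where some group had it well above background on 4 of 4 arrays. Where a gene had several tested probes (5890 of 21710 genes), the brightest on average stands for it. A gene above background on no array of a group has only a bound, written as at least so many fold. It sets the mean of the bright group against, per array of the dim group, the higher of the lowest signal among probes well above background and the probe's own. Symbols were updated for 15222 genes through RefSeq GRCm38.p6, used for names and promoters only; the probe coordinates of the files are mm9 and are not printed. One limma 3.58.1 fit (R 4.3.3, lmFit and eBayes) to 8 group means of 32 arrays gave all adjusted p-values (Benjamini-Hochberg). In 1 simulated draw for the diet comparison over 21710 genes, with independent normal noise, 100 genes were changed 2-fold and 100 were changed 4-fold. Of these 17% and 83% were called, with 3 false calls. Far fewer genes were changed there than were called in the data, so these shares do not carry over to the data. The groups, gene lists, focal genes and tests were chosen with earlier results of these data known. Named are the largest changes without overlap, the most significant members of a described list (up to 6) and those that moved against the others, a set of focal genes, and the largest interactions; not every gene the rule allows is printed, and Atf4 was added after its values were seen. Alternatives were quantile normalization, median scaling, normexp background correction (offset 50), dim probes let in, probes of a gene averaged, outlier spots retained, a fit to the compared groups alone, a block for the replicate number, both forms of the value table, and each array left out. A slide block could not be fitted, because each slide holds whole groups. Both diets without the agonist lie on the same slide and both with it on another.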

Additional observations from a re-analysis of the deposited data

Results flagged for a closer look

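In 28 of the 320 groups of 4 values tested (160 named genes in 2 diets), 1 liver lay so far from the other 3 that the gap to its nearest neighbour, divided by the range of the group, exceeded the critical value of Dixon's outlier test. Chance flags about 1 in 20 groups. In the first standard diet liver the level was Shmt2 5.06 (nearest 6.0), Psat1 -4.89 (nearest -3.25), Acot2 -2.51 (nearest -3.35), Sult1e1 -5.82 (nearest -3.48) and Krt19 1.99 (nearest 0.46). In the second standard diet liver the level was Phgdh -2.13 (nearest -2.87), Apoa4 1.27 (nearest 2.37), C1qa 2.05 (nearest 1.34), Trem2 -1.03 (nearest -2.24) and Pdgfra -1.16 (nearest -1.79). In the third standard diet liver the level was Cd36 -0.35 (nearest 0.03). In the fourth standard diet liver the level was Tlr5 -2.44 (nearest -1.24). In the first MCD diet liver the level was Cyp1a1 -2.81 (nearest -2.18), Erbb3 -1.49 (nearest -2.36) and Cfd -7.35 (nearest -4.33). In the second MCD diet liver the level was Srxn1 6.34 (nearest 5.46), Vsig4 3.21 (nearest 4.75), Vcam1 2.34 (nearest 2.91) and Krt23 4.63 (nearest 3.41). In the third MCD diet liver the level was Scd1 5.70 (nearest 4.72), Cpt1a 6.12 (nearest 6.29) and C8a 4.83 (nearest 4.11). In the fourth MCD diet liver the level was Fasn 2.16 (nearest 3.56), Socs2 2.71 (nearest 1.88), Cdc20 0.55 (nearest 2.75), Mki67 0.20 (nearest 1.44), Lgals3 4.64 (nearest 3.57) and Krt19 -1.04 (nearest -0.58). These values come from 1 array each, so a spot and a liver cannot be told apart.

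For 63 of the named genes the diet difference with the agonist was called different from that without it by the interaction test of limma, with adjusted p between 0.000381 and 0.0482; 44 interactions were negative and 19 positive. All values here are log2 interactions, which can come from livers of either diet. Among macrophage and antigen presentation genes they were Ms4a6d -5.32, Vsig4 -4.04, Ctss -3.83, Clec7a -3.60, C1qa -3.44, H2-Aa -3.28, Timd4 -3.06, H2-Ab1 -3.03, Clec9a -2.83, Clec4f -2.73 and Cd209a -2.39. Chemokine, cytokine and interferon genes gave Ccl2 -5.37, Ccl7 -5.24, Ccl4 -3.71, Mx1 -3.38, Vcam1 -2.68, Il1b -1.95, Ccl5 -1.88, Tnfrsf1b -1.70, Tnfrsf1a -1.14 and Tlr5 2.37. Lymphocyte and neutrophil genes gave S100a8 -2.80, Cd3d -1.82 and Cd4 2.15. For dividing cells and growth factor signalling the values were Cdc20 -4.45, Cenpe -4.25, Kif20a -3.99, Mki67 -3.30, Areg -3.24 and Met 1.49. Stress and amino acid genes gave Nupr1 -4.17, Asns -3.70, Atf3 -3.51, Ddit3 -2.41 and Gdf15 -2.37. In metal, haem and acute phase genes the interaction was Lcn2 -5.18, Mt2 -4.22, Saa1 -3.70, Mt1 -3.23, Hmox1 -2.96 and Apcs -2.55. Sex-biased genes gave Cyp3a44 -4.76, Cyp2b9 2.77, Cyp2b10 3.59 and Acot3 2.58. The remaining lipid and bile acid genes gave Mogat2 -2.92, Apoa4 -2.06, Cyp39a1 -1.42, Acaa1b 2.07, Srebf1 2.35 and Acot1 2.75. One-carbon and other hepatocyte genes had positive or negative values, Gnmt 1.15, Sardh 1.37, Shmt2 1.53, Amdhd1 1.41, Abcc3 1.49, F7 1.35, Dcn -1.84, Hk2 -3.88 and Ctrb1 2.48. The clock and coactivator genes had Nr1d1 4.18, Dbp 4.45 and Ppargc1b 4.87. Probes near background on standard diet limit the interactions of Ccl7, Ms4a6d, Ccl4, Cyp3a44, Areg, Mx1, Hk2 and Cyp2b9, which were above background on at most 2 of its 4 arrays.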

How the results depend on the processing

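The number of genes called, 5648, stayed within 1.5 times of that value under quantile normalization, normexp background correction and median scaling, with dim probes let in, probes of a gene averaged or outlier spots retained, in the fit to the groups compared alone, and with the columns of the processed table placed at matching arrays; it ranged from 4488 to 5414 when 1 array was left out. In the table as deposited it was 1194, and that table reverses the sign of 31 of the 125 called genes named here. Of the named rises it gives Mat2a -0.26, Trib3 -1.59, Atf3 -0.21, Srxn1 -0.58, Cidec -1.13, Cd36 -1.43, Acot2 -0.27, Acot3 -0.77, Cyp2b9 -0.47, Cyp2b10 -1.77, Cyp1a1 -0.021, Aldh1b1 -0.16, Mcm2 -0.40, Ccnd1 -0.0031, Atp6v0d2 -0.33, Ccl5 -0.0035 and Krt23 -0.69. Of the named falls it gives Sdf2l1 0.80, Scd1 0.16, Fabp5 1.76, Mttp 0.091, Gpbar1 0.25, C6 0.54, C8a 0.74, Stat5b 0.042, Lifr 0.91, Bcl6 0.22, Igf1 0.66, Haao 0.46, F7 0.055 and C9 0.41. Of the genes not called here, it calls Socs2 1.27, Dbp -4.35 and Gcgr 1.10 with the opposite sign and Saa1 4.18, Ccl2 2.48, Timd4 1.14, Spp1 1.05 and Pparg -0.77 with the same sign. The called interactions, 2408, ranged from 1782 to 2705 without 1 array and were 1383 in the processed table in either order of its columns. Normexp background correction called 2261 genes higher and 5935 lower and reversed Mtrr (-0.24); without the filter 2087 were higher and 4715 lower, and quantile normalization split the interactions into 986 higher and 1279 lower. With the columns placed at matching arrays 116 of 125 named calls were kept and 9 lost: Mtrr 0.28, Gpx1 -0.33, C8a -0.96, Igf1 -0.54, Ghr -0.83, Haao -1.30, Clec4f 0.90, Ccl7 1.05 and Cd3d 0.43. Of the 105 named calls with a difference of 1.5 or more 8 were lost under normexp, median or quantile scaling. Other settings also added calls among the 35 named genes that did not pass. Median scaling called 9 of them, normexp background correction 7, quantile normalization 3 and the fit to the compared groups alone 8, all in the direction given here. By the match of its columns, the table as deposited sets arrays labelled standard diet with agonist against standard diet arrays. The cause of the other changes was not tested.

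The replicate numbers do not pair the livers: correlations of same-numbered deviations were 0.19, -0.02, 0.05 and 0.00. A fit with the replicate number as a block called 5706 genes and 2417 interactions and changed no named call. Row of the slide and diet cannot be told apart, and 4 arrays a group limit the precision. Genes near background, such as Psat1, Ccl4, Tnf and the female-biased P450s on standard diet, have the least certain sizes.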
